A study of Danio rerio with 32 samples.

Results

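The genes described here lie within 1000 kb of an end of a zebrafish chromosome, and they were followed through a study of photoperiod and perfluorononanoic acid (PFNA, a perfluorinated carboxylic acid) in embryonic eyes and brains. A gene was a member when its midpoint lay within 1000 kb of position 0 or of the largest gene end listed on its chromosome, for chromosomes 1 to 25 except 4, and when it had at least 1 FPKM (fragments per kilobase of gene, scaled for library size) in 4 or more libraries of 1 tissue. Of 32520 genes in the deposited table, 1785 lay in these windows at any level, 467 of them did not pass the filter on level, and 1318 were members. Of these, 1235 were tested in eyes, 1223 in brains and 1140 in both, and 1 member, si_dkey-7i4.11, passed the filter through 1 group alone. They sat at 48 ends of 24 chromosomes, with 8 to 53 members per end and a median of 27. These ends are positions in the gene list and not the true ends of the assembly, so distances to a telomere are not known. Where a gene's own end is the largest on its chromosome, its distance runs only from its midpoint to that end. Members were thus chosen by position and, among measured values, by the 1 FPKM minimum. The windows were chosen with earlier results of these data known. The minimum was reached in exactly 4 libraries of their best tissue by 34 members, among them ccdc171. Another 24 genes of the windows reached it in 3 and stayed out. By position, cdh26.1 at 998.8 kb, RF00001 at 997.9 kb and cdk13 at 997.6 kb were the last inside, and si_dkey-77f5.6 at 1001.2 kb, mfn1b at 1001.4 kb and gnb1a at 1002.2 kb were the first outside.

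All embryos were wild type and were kept in 0.1% DMSO (dimethyl sulfoxide, the solvent) from 0.75 to 120 hours post fertilization. In each tissue, 4 groups of 4 libraries were made: 24 h of dark a day (DD) with 12.5 µM PFNA, DD with 0 µM PFNA (DMSO), 14 h of light and 10 h of dark (LD) with 12.5 µM PFNA, and LD with DMSO. The compound is PFNA in the labels and in the treatment protocol, which were followed; the design text of the series gives another perfluorinated compound, PFHxS, in its place. No label says whether replicates were separate clutches or how many embryos were pooled in a library, so p-values measure the spread between these libraries, which may be technical.

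The ends of chromosomes are capped by telomeres, and the stretch just inside the cap is called the subtelomere. In yeast, genes placed beside a telomere can be silenced by the spread of repressive chromatin, which is known as the telomere position effect, and in human cells genes near a telomere can change with telomere length. Chromosome 4, whose long arm in zebrafish is rich in heterochromatin and repeated gene families, was left out.

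Libraries held 8.83 M to 16.13 M fragments (M for mega), recovered as whole numbers from FPKM and gene length, with a median of 11.44 M. The eye and brain labels matched their markers: 16 photoreceptor genes summed to between 8340 and 19200 FPKM in the eye libraries used and to at most 44.4 FPKM in the brain libraries used. A pair of libraries stood apart and was left out of every fit, namely replicate 4 of the PFNA-exposed DD eyes and replicate 3 of the PFNA-exposed DD brains. The eye library had 10% of its fragments on mitochondrial genes and 19.4% on its 10 most abundant genes. The brain library had 1280 FPKM of rho and 1710 FPKM of pde6ha, both photoreceptor genes. Its lens, photoreceptor and melanin markers summed to 23800, 8270 and 385 FPKM, where the brain libraries used had at most 12.3, 44.4 and 48.9 FPKM, so it held RNA of eye genes at levels near those of the eye libraries. Results below therefore use 15 libraries per tissue, 3 in each PFNA-exposed DD group and 4 in every other group, and the values with all 16 are given where they differ by more than 1.5 times.

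The windows made up 3.79% of the length of the 24 chromosomes and held 7.22% of their tested genes. They were denser in genes, with 37.2 genes per Mb of any level against 22.9 per Mb elsewhere. Members were shorter than the 17882 other genes that passed the filter, with a median length of 1866.5 bases against 2253.5 bases, and they spanned a median of 9321.5 bases of the chromosome against 16669.5 bases. Protein-coding genes were 93.2% of members and 89.6% of other genes. Median levels were close, at 5.71 FPKM for members against 5.88 FPKM for other genes in eyes and at 5.72 against 5.34 FPKM in brains. The residual SD of log2 level between replicates was larger for members, with medians of 0.25 against 0.22 in eyes and 0.24 against 0.23 in brains. Other genes here are all tested genes outside the windows, those of chromosome 4 and of unplaced sequence included. Differences between members and other genes are given as medians and counts without a test. Genes are not replicates of a condition, and members were chosen with earlier results of these data known.

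To see what constant darkness did near chromosome ends, DD was first compared with LD in solvent controls. In eyes, genes near chromosome ends were mostly lower in DD: 50 rose and 334 fell of 1235 (limma on log2(FPKM + 1), adjusted p under 0.05). That is 31.1% called, where 22% of all 18204 genes tested were called, with 4.05% called higher where 9.99% of all genes were and 27% called lower where 12% of all genes were. The median log2 change was -0.21 near ends against 0.039 for other genes, and 69.7% of the genes near ends had a change below 0 against 45.5% of other genes. In brains, 34 rose and 302 fell of 1223, or 27.5% called where 15.8% of all 17437 genes were, with 2.78% called higher where 6.31% of all genes were and 24.7% called lower where 9.54% of all genes were. The median log2 change there was -0.21 near ends against 0.013 for other genes, and 858 of the 1223 genes near ends lay below 0, against 48.3% of the others. In bulk samples of a dissected tissue, fewer cells of a type and less RNA per cell cannot be told apart. With all 16 libraries in the fit, the counts were 199 in eyes and 137 in brains, with 172 and 124 of them lower. A fit of the compared groups alone gave 164 in brains, 153 of them lower. Without the filter on low values, the median near ends minus that of other genes was -0.14 in place of -0.25 in eyes and -0.11 in place of -0.22 in brains.

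Each library was then given 1 value: the median, over genes near ends, of the log2 deviation from the gene's mean in that tissue, minus the same median over other genes. In eyes this difference was -0.11, -0.033 and -0.011 in the 3 PFNA-exposed DD libraries, and it averaged -0.15 ± 0.075 in DD controls, 0.088 ± 0.046 in PFNA-exposed LD libraries and 0.12 ± 0.053 in LD controls (SD, n = 4 each). In brains it averaged -0.095 ± 0.022 in PFNA-exposed DD libraries (SD, n = 3), -0.12 ± 0.056 in DD controls, 0.084 ± 0.03 in PFNA-exposed LD libraries and 0.12 ± 0.037 in LD controls (SD, n = 4 each). Every DD library used lay below every LD library used, in both tissues. The 2 libraries left out had the lowest values of all, -0.53 for the eye library and -0.32 for the brain library. The brain library's value is measured against brain means, and LD control eyes minus LD control brains had a median log2 difference of -0.11 near ends against 0.031 for other genes. Among those used, replicate 4 of the DD control eyes was lowest at -0.26, and the median near ends minus that of other genes was -0.24 in eyes without it.

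**Figure D1:**
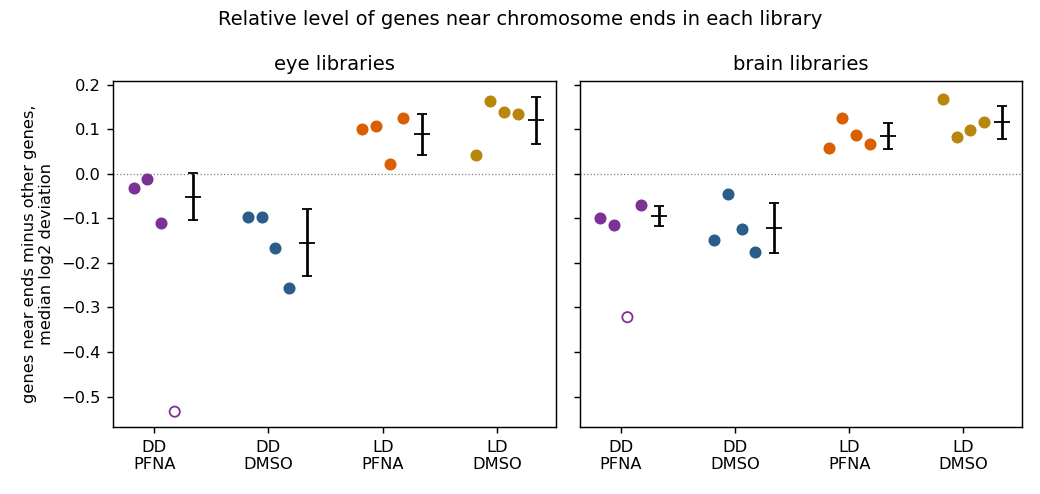
Each point is a library: the median log2 deviation of genes near chromosome ends minus that of other genes (vertical axis), for eyes and brains, by group from DD with PFNA to LD with DMSO. Bars are means ± SD of the libraries used, and open circles are the 2 libraries left out, at -0.53 and -0.32; every DD library used lies below every LD library used.

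Measures of RNA quality also shifted between DD and LD controls, narrowly overlapping in eyes and overlapping more in brains. Mitochondrial genes took 6.09% to 8.03% of fragments in DD control eyes against 5.29% to 6.13% in LD control eyes, and 6.52% to 9.09% in DD control brains against 6.26% to 7.03% in LD control brains. Among other genes, the median log2 deviation of long minus short genes was -0.20 to -0.011 in DD control eyes against -0.012 to 0.062 in LD control eyes, with the lowest value in replicate 4 of the DD control eyes. In brains that measure was -0.066 to 0.032 in DD controls against -0.029 to 0.014 in LD controls. Replicates 1 to 4 of the DD control brains had 9.09%, 8.55%, 6.52% and 7.81% of fragments on mitochondrial genes. Their long minus short values were 0.032, -0.003, -0.066 and -0.033. Their library values near ends were -0.148, -0.045, -0.123 and -0.175 in that order. Replicates 1 to 4 of the DD control eyes had 6.09%, 6.66%, 6.94% and 8.03% of fragments on mitochondrial genes. In these eyes the long minus short values were -0.011, -0.036, -0.157 and -0.204. The library values near ends were -0.098, -0.098, -0.166 and -0.256 in the same order. The eye library left out was low on the long minus short measure as well, at -0.75. The difference was present in each of 4 length classes in both tissues. Genes under 1 kb had median log2 changes of -0.21 near ends against 0.069 elsewhere in eyes and -0.22 against -0.009 in brains. Genes over 4 kb had -0.29 against -0.046 in eyes and -0.29 against -0.017 in brains. The part of RNA quality in the result beyond these classes was not tested.

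Markers of exocrine pancreas and gut, which belong to neither dissected tissue, also moved with photoperiod. Of the 22 listed, 14 of the 16 tested rose in DD control eyes and 13 of the 14 tested rose in DD control brains, and none is near a chromosome end. Their sum was 89.9 to 428 FPKM in DD control eyes against 30.3 to 133 FPKM in LD control eyes, and 71.8 to 532 FPKM in DD control brains against 17.3 to 42.8 FPKM in LD control brains. Between 1 and 5 of the 22 were listed at 0 in a DD control library, and between 3 and 8 in an LD control library. In the PFNA-exposed DD brains used, which are 3 libraries of another treatment, the sum was 26.4 to 42.1 FPKM, close to that of the LD brains. Their genes near ends averaged -0.095 on the library measure above, against -0.12 in the DD control brains. The part of these markers in the result was not tested. Melanin pigment markers summed to 8.2 to 11.7 FPKM in DD control brains against 16.5 to 48.9 FPKM in LD control brains, and 6 of the 10 tested fell in DD; up to 3 of the 13 were listed at 0 in a DD library and up to 1 in an LD library. Photoreceptor markers summed to 10800 to 12300 FPKM in DD control eyes against 15200 to 19200 FPKM in LD control eyes; 4 of 16 rose and 6 fell in DD, and none was at 0. The part of both lists in the results near ends was not tested.

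The difference was graded with distance from the end. In DD against LD control eyes, the median log2 change was -0.38 for the 201 genes within 100 kb, -0.31 between 100 and 250 kb, -0.19 between 250 and 500 kb and -0.14 between 500 and 1000 kb. Beyond the windows it was -0.04 between 1000 and 2000 kb, -0.01 between 2000 and 5000 kb, 0.023 between 5000 and 10000 kb and 0.065 farther in. The share of genes called lower fell off in the same order, with 35.8%, 33.8%, 25.6% and 21.1% in the 4 bins within the windows and 15.4%, 14.4%, 12.6% and 9.2% in the 4 bins beyond them. In brains the medians ran from -0.31 within 100 kb through -0.28, -0.23 and -0.16 to -0.095 between 1000 and 2000 kb, and reached 0.038 beyond 10000 kb. With windows of 500 kb and of 2000 kb the difference between members and other genes in eyes was -0.31 and -0.19.

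**Figure D2:**
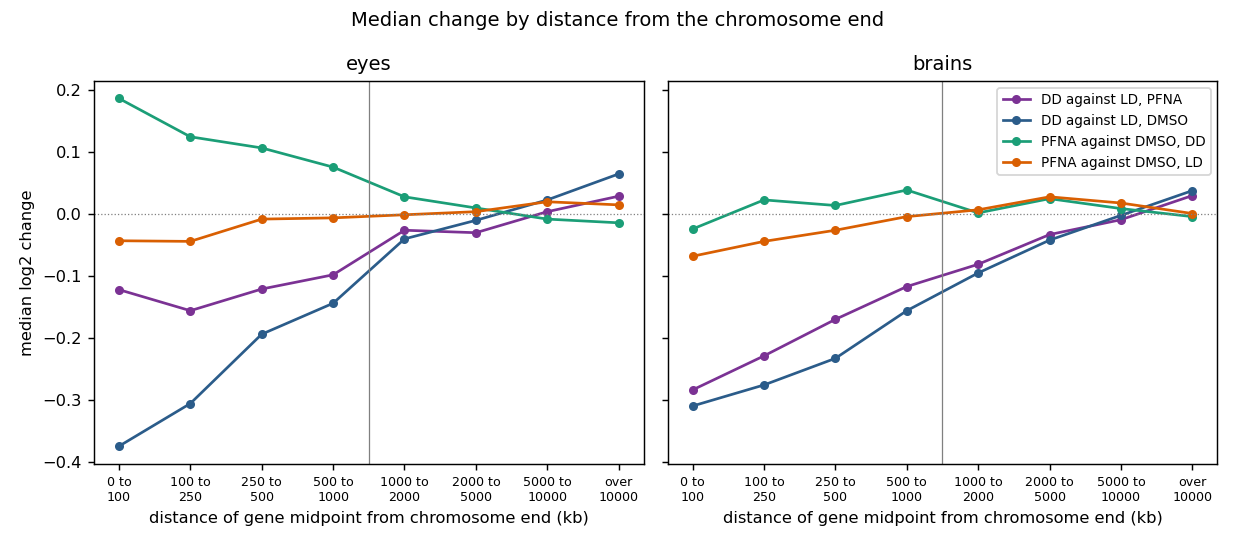
Median log2 change of genes by distance from the nearer chromosome end (horizontal axis, bins in kb), for DD against LD and for PFNA against DMSO in eyes and brains; the vertical line marks 1000 kb. The DD against LD lines of the controls start at -0.38 in eyes and -0.31 in brains within 100 kb and approach 0 with distance, while the line for PFNA in DD eyes starts at 0.19.

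The side of the chromosome and the direction of transcription moved these medians by little. The end with the largest positions and the end at position 0 had median log2 changes of -0.22 and -0.21 in control eyes and of -0.20 and -0.22 in control brains, DD against LD. Genes transcribed toward the end and away from it had -0.20 and -0.22 in eyes and -0.22 and -0.20 in brains. Protein-coding genes near ends had -0.22 against 0.037 elsewhere in eyes and -0.21 against 0.01 in brains, and long noncoding RNAs had -0.13 against 0.15 in eyes and -0.28 against 0.13 in brains. Genes of other types, 31 in eyes and 32 in brains, had -0.20 near ends against -0.003 elsewhere in eyes and -0.045 against -0.027 in brains. The members called lower in eyes were longer and more abundant than those not called, with a median length of 2322 against 1690 bases, a median level of 11.8 against 4.67 FPKM, and a median distance of 297 against 412 kb from the end. In brains the corresponding values were 2244 against 1770 bases, 12.5 against 4.96 FPKM and 284 against 395 kb. Members called higher had medians of 1591 bases and 15.5 FPKM in eyes and of 2060 bases and 6.41 FPKM in brains. Outside the windows, lower calls in control eyes went with length and level, and higher calls went with level as well. Of other genes under 3 FPKM, 3.1% were called lower and 7.61% higher. Of those over 30 FPKM, 24.6% were called lower and 14.9% higher. By length, 6.95% of other genes under 1 kb were called lower and 7.62% higher, and 18.9% and 8.48% of those over 4 kb. Level thus went with calls in both directions.

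Every chromosome but 1 shared the direction in eyes. The median of genes near ends was below that of the chromosome's other genes on 23 of 24 chromosomes in control eyes and on 24 of 24 in control brains, DD against LD. The difference was largest on chromosome 21 in eyes, at -0.40, where 24 of 52 genes near ends fell and 4 rose, and 10.4% of the chromosome's other genes were called lower. On chromosome 6 it was -0.33 in eyes, with 20 lower and 1 higher of 50. In brains it was largest on chromosome 7, at -0.43, and on chromosome 17, at -0.40. Chromosome 3 was the exception in eyes, at 0.028, with 3 lower and 1 higher of 30, and it was -0.12 in brains. Chromosome 15 was small in both, at -0.099 in eyes and -0.14 in brains. Between the medians of the 2 ends of a chromosome, over 24 chromosomes, Pearson's r was 0.071 and Spearman's rho 0.047 in eyes, and r was 0.24 and rho 0.41 in brains, as a description of points that share libraries.

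By end, 47 of 48 medians lay below the median of other genes in control eyes and 46 of 48 in control brains. The end of chromosome 19 with the largest positions was lowest in both, with a median log2 change of -0.54 in eyes, where 14 of 30 genes fell and 1 rose, and of -0.57 in brains, where 13 of 29 fell and 2 rose. In eyes the next lowest was that of chromosome 18, with -0.53 and 11 of 23 lower, followed by that of chromosome 2, with -0.51 and all 15 genes below 0. In brains the next lowest was that of chromosome 9, with -0.46 and 6 of 16 lower. The highest was the start of chromosome 3, the end at position 0, with 0.069 in eyes over 8 genes and 0.17 in brains over 6 genes. Eyes and brains, which are different libraries, gave like orders of the ends, with Pearson's r of 0.67 and Spearman's rho of 0.65 over 48 ends, a description of points that share gene annotation and rearing. In 12 of 14 pairs an eye library was closest, across genes, to the brain library of its own group and number, and no label says whether such libraries came from the same embryos, so the tissues may not be independent. Gene by gene, among members tested in both tissues, 176 fell in both. That is 55.9% of the 315 that fell in eyes and 60.5% of the 291 that fell in brains. Another 13 rose in both, or 28.3% of the 46 that rose in eyes and 38.2% of the 34 in brains. Opposite calls were found for 2 members. Shared rises and opposite calls were not counted among other genes, so no background is given for them. Among other genes, 731 fell in both, which is 41.7% of the 1751 that fell in eyes and 55.3% of the 1323 that fell in brains. Pearson's r between the eye and brain changes was 0.66 over 1140 members against 0.6 over 15301 other genes.

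**Figure D3:**
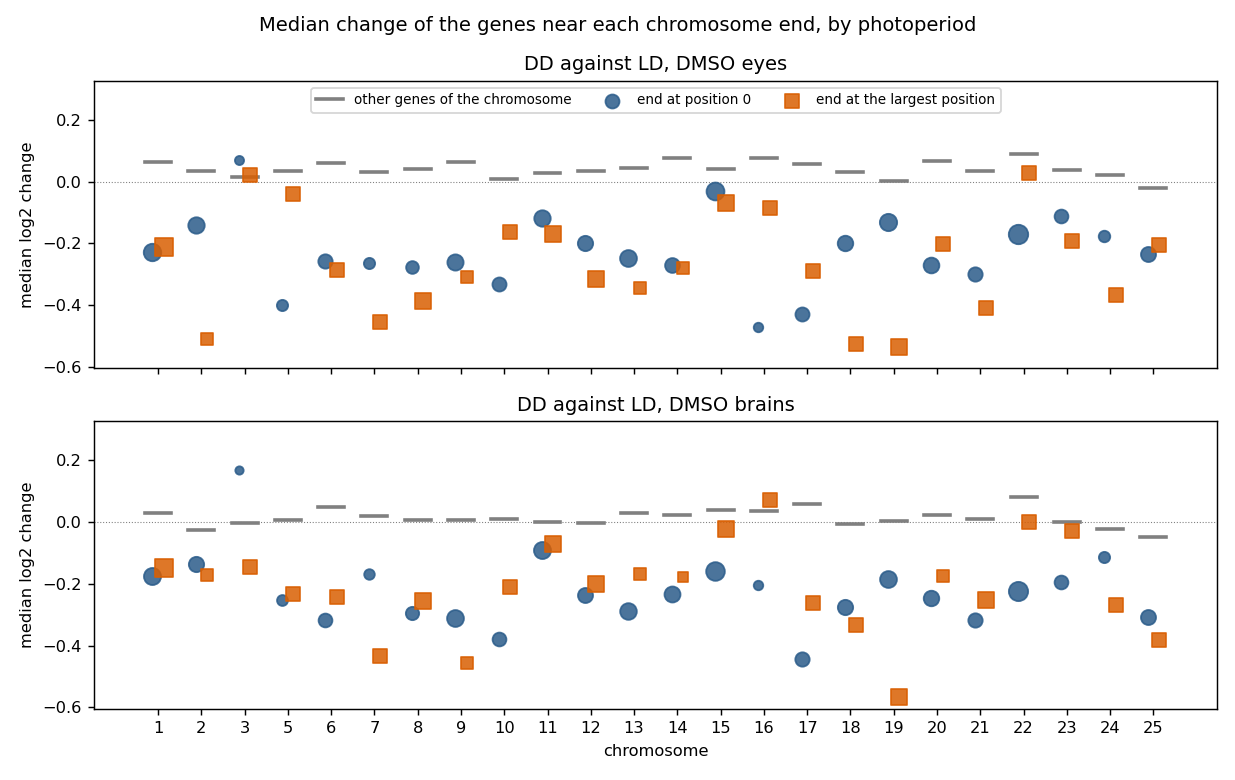
Median log2 change, DD against LD in DMSO controls, of the genes near each chromosome end in eyes and brains; circles are ends at position 0, squares are ends at the largest position, symbol area follows the number of genes and grey bars are the other genes of the chromosome. The lowest end in both panels is that of chromosome 19, at -0.54 in eyes and -0.57 in brains, and most ends lie below the grey bars.

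At the low end of chromosome 19 the called genes were neighbours. Between 48018464 and 48104715 of the deposited coordinates, whose genome build is not given in the sources used here, 6 adjacent tested genes fell in control eyes: UBE2M, kpnb1, RF00600, psmd3, zgc_85936 and utp18, with a median log2 change of -1.09. The first 5 of them also fell in control brains, with a median of -0.72. kpnb1, importin beta, which carries proteins into the nucleus, had 19.7, 19.1, 19.2 and 12.4 FPKM in DD control eyes, against 39, 41.6, 44.9 and 43.5 FPKM in LD control eyes. All 4 DD libraries lay below all 4 LD libraries, and replicate 4 was the lowest. The log2 change of kpnb1 was -1.24 ± 0.17 in eyes and -0.72 ± 0.1 in brains (SE, limma, adjusted p = 0.000288 and 0.000611). psmd3, a subunit of the lid of the proteasome's regulatory particle, had 9.62, 11.2, 10.2 and 11.6 FPKM in DD control eyes, against 19.5, 22.9, 24.5 and 22.8 FPKM in LD control eyes. The groups did not overlap, and the log2 change of psmd3 was -1.01 ± 0.09 (SE, limma, adjusted p = 1.92e-05).

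Farther in on the same end, ctnnb2 (47975916 to 47997424, minus strand), a beta-catenin that acts in cell adhesion and in Wnt signalling, had 20.9, 23, 19.7 and 16.8 FPKM in DD control eyes, against 39.5, 44.2, 41.3 and 45.3 FPKM in LD control eyes. In brains it had 21.6, 25.8, 24.3 and 24.4 FPKM in DD controls, against 51.8, 38.2, 48.3 and 51.2 FPKM in LD controls. In neither tissue did the groups overlap. Its log2 change was -1.05 ± 0.13 in eyes and -0.94 ± 0.12 in brains (SE, limma, adjusted p = 0.000128 and 0.00023). Not every gene of this end was lower. rpl14, a protein of the large ribosomal subunit and the gene of this end nearest the chromosome's last position, had 473, 494, 503 and 505 FPKM in DD control eyes, against 419, 392, 351 and 349 FPKM in LD control eyes. It rose by a log2 change of 0.39 ± 0.07 in eyes and 0.59 ± 0.15 in brains (SE, limma, adjusted p = 0.00111 and 0.0148), calls that were lost with all 16 libraries (adjusted p = 0.147 and 0.0615).

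Other ends had their own runs. A run is 3 or more adjacent tested genes near an end that were all called in the same direction. In control eyes 25 runs of lower genes held 87 genes, which is 26% of the members called lower, and in control brains 20 runs held 64 genes, or 21.2%. Counted the same way over other genes of these chromosomes, 8.61% of the genes called lower in eyes and 9.9% of those in brains stood in runs. The order was not the same in PFNA-exposed embryos, DD against LD. There 5.56% of the members called lower in eyes stood in runs, against 1.6% of other genes called lower. In PFNA-exposed brains it was 7.14% of members against 11.4% of other genes. Entries that share a symbol were counted as separate genes. In control eyes a run near an end was cacna1db, cacna1db and cacna1db, and another was capzb, celsr2 and celsr2. Runs also grow more frequent with the share called lower, which was larger near ends, and whether neighbours fell together beyond that was not tested. At the far end of chromosome 6, caskb, ddx3xb, kdm6al, aamp and fbxl3b fell together in control eyes over 134 kb with a median log2 change of -0.99. The first 3 fell in control brains with -0.63. The brain calls of caskb and ddx3xb were lost with all 16 libraries (limma, adjusted p = 0.221 and 0.0807). That of ddx3xb was also lost in a fit of the compared groups alone (0.11) and in 4 of the fits that left out 1 library. ddx3xb is a DEAD-box RNA helicase and kdm6al is related to the histone demethylase Kdm6a. At the very tip of that end prelid3b, aurka and slc32a1 fell in both tissues. The brain call of aurka was lost in 6 of the fits that left out 1 library, with all 16 libraries (limma, adjusted p = 0.066) and in a fit of the compared groups alone (0.113), and that of prelid3b was lost with all 16 libraries (0.145). slc32a1, the vesicular transporter of GABA and glycine, was the last listed gene of the chromosome. Its distance of 2.45 kb runs from its midpoint to its own end. It had 31.1, 45.8, 36.3 and 37 FPKM in DD control eyes, against 47.5, 58, 61.7 and 57.9 FPKM in LD control eyes. Its log2 change was -0.58 ± 0.15 in eyes and -0.31 ± 0.1 in brains (SE, limma, adjusted p = 0.0142 and 0.0496), and the brain call was lost in 12 of the fits that left out 1 library.

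At the start of chromosome 10, riox2, CABZ01064670.1, hlcs, dyrk1aa and vps26c fell together in control brains over 58.6 kb with a median log2 change of -0.91. dyrk1aa (62369 to 76367, minus strand), a dual-specificity kinase whose human counterpart lies in the Down syndrome region, had 21.1, 21.2, 22.7 and 18.7 FPKM in DD control brains, against 41.5, 38.4, 33.2 and 49.5 FPKM in LD control brains. In eyes it had 13.9, 13, 11.3 and 7.15 FPKM in DD controls, against 19.5, 29.1, 27.4 and 27.8 FPKM in LD controls. Every DD value was below every LD value in both tissues. Its log2 change was -0.91 ± 0.12 in brains and -1.15 ± 0.19 in eyes (SE, limma, adjusted p = 0.000357 and 0.00108). hlcs, the enzyme that attaches biotin to carboxylases, changed by -1.03 ± 0.26 in brains and -0.84 ± 0.26 in eyes (SE, limma, adjusted p = 0.0152 and 0.0349), and its eye call was lost in 5 of the fits that left out 1 library.

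At the start of chromosome 21, bxdc2, dtwd2, stard4 and jak2a fell together in control eyes over 68.4 kb with a median log2 change of -0.76. jak2a, a Janus kinase of cytokine signalling, had 3.67, 4.22, 3.71 and 2.63 FPKM in DD control eyes, against 5.03, 7.55, 7.19 and 8.47 FPKM in LD control eyes. In brains it had 3.07, 3.78, 2.55 and 2.35 FPKM in DD controls, against 6.09, 5.8, 6.66 and 6.21 FPKM in LD controls. The groups did not overlap in either tissue, and the log2 change of jak2a was -0.82 ± 0.21 in eyes and -0.88 ± 0.13 in brains (SE, limma, adjusted p = 0.012 and 0.000749). At the start of chromosome 22, nckipsd, slc25a20, prkar2ab and si_ch1073-335m2.2 formed an eye run of 60.9 kb with a median of -0.7. slc25a20, the mitochondrial carrier of acylcarnitines, changed by -0.64 ± 0.17 in eyes and -0.44 ± 0.12 in brains (SE, limma, adjusted p = 0.0157 and 0.0189). With all 16 libraries, the eye calls of jak2a and slc25a20 were lost (adjusted p = 0.104 and 0.0766).

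Within 100 kb of an end, 35.8% of genes were called lower in control eyes and 33.7% in control brains, where 12% and 9.54% of all genes were. Some genes nearest an end were among them, chosen here after their values were seen. Others were not: rpl14 on chromosome 19 rose, and lmcd1 on chromosome 22 was not called in either tissue. Nearest genes were not counted over all ends. ubxn4, which acts in the degradation of endoplasmic reticulum proteins and lies 1.22 kb from the far end of chromosome 9, had 6.64, 6.46, 10.7 and 8.66 FPKM in DD control eyes, against 16.9, 15.2, 21.4 and 18.3 FPKM in LD control eyes. In brains ubxn4 had 7.24, 10.2, 8.71 and 12.6 FPKM in DD controls, against 21.8, 13.2, 18.4 and 22.3 FPKM in LD controls. No DD library reached an LD library in either tissue. Its log2 change was -1.07 ± 0.27 in eyes and -0.9 ± 0.17 in brains (SE, limma, adjusted p = 0.0121 and 0.00315), and the eye call was lost with all 16 libraries (adjusted p = 0.0782). sox9b, a transcription factor of cartilage and glia, lies 3.33 kb from the far end of chromosome 3, an end whose median was 0.02 in eyes. It fell nonetheless, with 6.23, 7.34, 6.21 and 5.9 FPKM in DD control eyes, against 9.27, 11.5, 11.4 and 8.51 FPKM in LD control eyes, a log2 change of -0.58 ± 0.13 (SE, limma, adjusted p = 0.00692; 0.264 with all 16 libraries). iqgap3, a scaffold protein of dividing cells at 25.4 kb from the far end of chromosome 16, changed by -0.84 ± 0.16 in eyes and -0.79 ± 0.16 in brains (SE, limma, adjusted p = 0.00266 and 0.00396).

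A large fall at the tip of a chromosome was that of atad3 on chromosome 22 (5156 to 7050, minus strand, 6.1 kb from position 0). atad3 is a mitochondrial ATPase that helps hold mitochondrial DNA to the inner membrane. In eyes it had 3.33, 4.83, 3.5 and 2.02 FPKM in DD controls, against 6.41, 14.6, 15.2 and 12.6 FPKM in LD controls. In brains it had 3.06, 4.88, 4.61 and 2.47 FPKM in DD controls, against 17.9, 16, 21.3 and 19.2 FPKM in LD controls. The groups did not overlap, and the gap was wider in brains. Its log2 change was -1.55 ± 0.26 in eyes and -2.07 ± 0.19 in brains (SE, limma, adjusted p = 0.000966 and 2.77e-05).

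The far end of chromosome 18 was low in both tissues, with a median log2 change of -0.53 in control eyes and -0.34 in control brains, where 9 of 26 genes fell, but cttn and shank2a there were called in control eyes alone. shank2a, a scaffold of excitatory synapses, had 11, 10.8, 10.9 and 6.42 FPKM in DD control eyes, against 18, 21.3, 22.9 and 21.7 FPKM in LD control eyes, a log2 change of -1.05 ± 0.18 (SE, limma, adjusted p = 0.00107; 0.0635 with all 16 libraries). In brains shank2a had 1.12, 1.85, 2.56 and 2.16 FPKM in DD controls, against 2.37, 2.58, 2.62 and 2.28 FPKM in LD controls, with a log2 change of -0.27 ± 0.15 that did not pass (limma, adjusted p = 0.257). The brain levels were close to the 1 FPKM minimum. cttn, cortactin, which binds branched actin, was likewise called in eyes and not in brains. The difference between tissues was not tested.

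Genes that rose in DD near ends were few and scattered. zgc_194659 on chromosome 3 (472158 to 474844, plus strand), which overlaps dicp1.1 so that their fragments may not be separable, had 61.3, 31.4, 44.1 and 48.8 FPKM in DD control eyes, against 2.82, 3.39, 5.23 and 7.38 FPKM in LD control eyes. In brains it had 25.5, 10.3, 26.2 and 24.1 FPKM in DD controls, against 3.4, 2.5, 1.48 and 2.15 FPKM in LD controls. The groups were far apart in both tissues, and the log2 change was 3.09 ± 0.27 in eyes and 2.68 ± 0.3 in brains (SE, limma, adjusted p = 1.42e-05 and 0.000136). fabp1a, a liver and gut fatty acid-binding protein, had 1.36 to 4.46 FPKM in DD control eyes and was listed at 0 in all 4 LD control eye libraries, and it rose in DD (limma, adjusted p = 0.000401). It stands beside the exocrine pancreas and gut markers whose sums rose in DD.

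Genes of vision near ends went both ways in eyes. Of 6 phototransduction and visual cycle genes near ends, 2 rose and 2 fell in DD control eyes, as did 20 and 16 of the 65 tested in all. pde6ha, an inhibitory subunit of the cone phosphodiesterase at 345 kb from the start of chromosome 6, had 1180, 1890, 1920 and 1740 FPKM in DD control eyes, against 403, 573, 563 and 672 FPKM in LD control eyes. rho, the rod visual pigment at 227 kb from the far end of chromosome 8, had 1160, 1930, 1590 and 1780 FPKM in DD control eyes, against 2120, 3590, 2720 and 2580 FPKM in LD control eyes. The first was higher and the second lower in every DD library than in any LD library. The log2 change was 1.6 ± 0.19 for pde6ha and -0.77 ± 0.19 for rho (SE, limma, adjusted p = 0.000107 and 0.00929). rgrb, a retinal G protein-coupled receptor of the visual cycle, rose by 0.67 ± 0.11, and rdh8b, a retinol dehydrogenase of photoreceptors, fell by a log2 change of -0.82 ± 0.13 (SE, limma, adjusted p = 0.000923 and 0.000718).

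tyrp1a, a melanin enzyme at 67 kb from the far end of chromosome 7, had 5.68, 5.57, 6.58 and 5.94 FPKM in DD control eyes, against 13.9, 18.7, 11.7 and 13.7 FPKM in LD control eyes. The groups did not overlap, and the log2 change of tyrp1a was -1.14 ± 0.15 (SE, limma, adjusted p = 0.000209). The 13 melanin pigment markers summed to 354 to 400 FPKM in DD control eyes against 397 to 512 FPKM in LD control eyes, and none was at 0; their part in the result for tyrp1a was not tested.

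Among genes that maintain telomeres, 2 of 35 matched lie near ends, tert and parn, and both fell in DD control eyes. tert, the catalytic subunit of telomerase at 635 kb from the start of chromosome 19, had 1.57, 0.809, 1.19 and 1.35 FPKM in DD control eyes, against 3.19, 3.72, 3.44 and 3.58 FPKM in LD control eyes. The groups did not overlap, and its log2 change was -1.02 ± 0.16 (SE, limma, adjusted p = 0.000608). In brains the log2 change of tert was -0.18 ± 0.14 and did not pass (limma, adjusted p = 0.421). parn, a ribonuclease that matures the telomerase RNA, changed by -0.46 ± 0.12 in eyes and -0.15 ± 0.13 in brains (SE, limma, adjusted p = 0.0123 and 0.469), and its eye call was lost with all 16 libraries (adjusted p = 0.129). Of all telomere maintenance genes tested, 9 of 32 fell in eyes, and 4 of 29 fell and 1 rose in brains. Of the heterochromatin and DNA methylation genes, 16 of 44 fell and 1 rose in eyes, and 7 of 44 fell and 2 rose in brains. The one near an end that was called was eed, a core subunit of Polycomb repressive complex 2 at 31 kb from the start of chromosome 1. It had 3.09, 3.01, 2.95 and 4.95 FPKM in DD control eyes, against 7.69, 7.31, 7.04 and 9.91 FPKM in LD control eyes, a log2 change of -1.01 ± 0.18 (SE, limma, adjusted p = 0.00148).

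Cell cycle genes fell both near ends and elsewhere. All 5 near ends, mcm7, rrm2, aurka, aurkb and cenpe, fell in DD control eyes, as did 31 of 45 tested in all, and 3 of the 5 fell in brains, as did 25 of 44. mcm7, a subunit of the replicative helicase at 98.3 kb from the start of chromosome 14, had 18.6, 16.3, 12.8 and 10.7 FPKM in DD control eyes, against 33.6, 34.4, 32.2 and 29.3 FPKM in LD control eyes. No DD library reached an LD library. The log2 change of mcm7 was -1.12 ± 0.16 (SE, limma, adjusted p = 0.000348). FP236812.1, described in the table as histone H2B 1/2 and 1 of a set of near-identical genes whose fragments may be shared, changed by -1.13 ± 0.19 in eyes and -1.88 ± 0.33 in brains (SE, limma, adjusted p = 0.000914 and 0.00186).

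**Figure D4:**
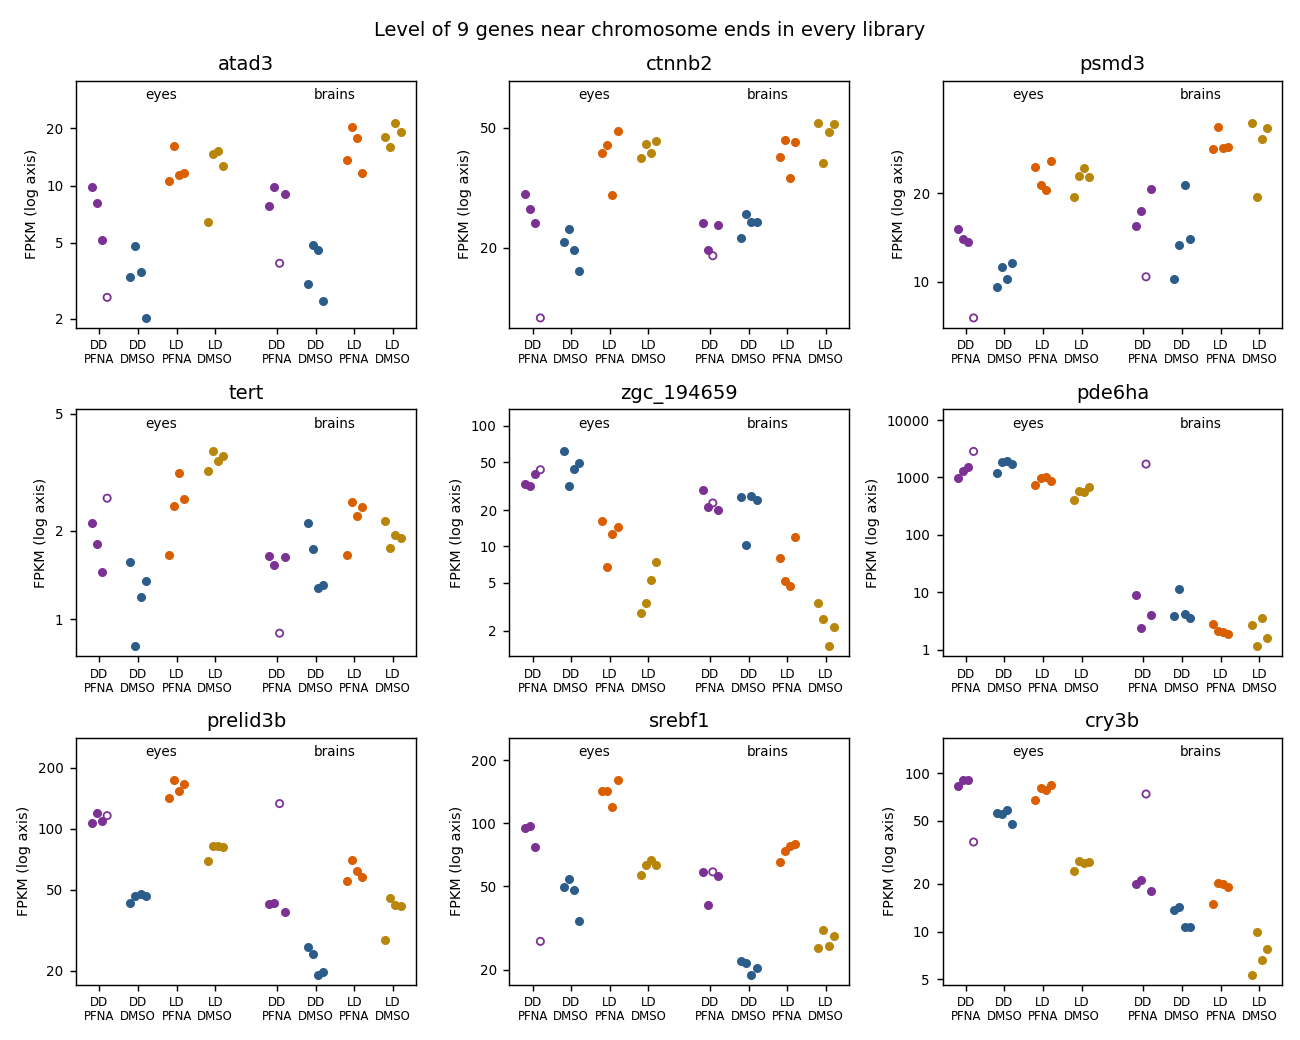
FPKM on a log axis in every library for 9 genes near chromosome ends, by tissue and group; open circles are the 2 libraries left out. atad3, ctnnb2, psmd3 and tert lie lower in DD than in LD control eyes and zgc_194659 and pde6ha lie higher, while prelid3b, srebf1 and cry3b lie higher with PFNA than with DMSO.

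The photoperiod comparison was repeated in PFNA-exposed embryos, which share no library with the controls. The fit took its spread from all groups of a tissue, so control libraries enter the calls below but not the log2 changes. In eyes 31 rose and 126 fell of 1235, or 12.7% called where 10.9% of all genes were (4.46% higher and 6.42% lower), and the median log2 change was -0.12 near ends against 0.012 for other genes. In brains 19 rose and 168 fell of 1223, or 15.3% called where 9.53% of all genes were (3.62% higher and 5.9% lower), with a median of -0.18 against 0.009. Of the 48 ends, 43 lay below the median of other genes in eyes and 47 in brains. The far end of chromosome 19 was again lowest, at -0.41 in eyes with 7 genes lower and 1 higher, and at -0.44 in brains with 7 lower. ctnnb2 had 30.1, 26.9 and 24.2 FPKM in PFNA-exposed DD eyes, against 41.2, 43.8, 29.9 and 48.6 FPKM in PFNA-exposed LD eyes, and its log2 change was -0.56 ± 0.14 in eyes and -0.84 ± 0.12 in brains (SE, limma, adjusted p = 0.0222 and 0.0017). dyrk1aa changed by -0.83 ± 0.21 in eyes and -0.85 ± 0.13 in brains (SE, limma, adjusted p = 0.023 and 0.00191). Both eye calls were lost in 4 of the fits that left out 1 library, and that of ctnnb2 also in a fit of the compared groups alone (limma, adjusted p = 0.0779). The highest ends were the start of chromosome 3, at 0.2 in eyes and 0.21 in brains, and the start of chromosome 16, at 0.16 in eyes and 0.002 in brains. The median log2 deviation of long minus short other genes was -0.094 to -0.043 in PFNA-exposed DD eyes and 0.031 to 0.215 in PFNA-exposed LD eyes. Mitochondrial genes took 5.07% to 6.17% and 4.66% to 5.85% of fragments there. In brains both measures overlapped between DD and LD. The part of RNA quality in these results was not tested.

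These counts of called genes fell when any of several libraries was left out. In eyes the count of 157 was 96 without replicate 1 of the PFNA-exposed DD eyes, 58 without replicate 3 of them, and 89 and 95 without replicates 2 and 4 of the PFNA-exposed LD eyes. It was 236 with all 16 libraries and 97 in a fit of the compared groups alone. In brains the count of 187 was 119 and 82 without replicates 1 and 2 of the PFNA-exposed DD brains and 118 without replicate 2 of the PFNA-exposed LD brains, and it was 316 in a fit of the compared groups alone. The medians near ends minus those of other genes moved less, at -0.16 to -0.11 in eyes and -0.20 to -0.17 in brains over the fits that left out 1 library. With all 16 libraries they were -0.24 in eyes and -0.23 in brains.

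To see what PFNA did near chromosome ends, exposed embryos were compared with controls within each photoperiod. The DD and LD comparisons use the control libraries that also served the photoperiod comparison, so the 2 sets of values are not independent. In DD eyes, 121 genes near ends rose and 25 fell of 1235, or 11.8% called where 14% of all genes were, with 9.8% called higher where 8.53% of all genes were and 2.02% called lower where 5.48% of all genes were. The median log2 change was 0.11 near ends against -0.009 for other genes, and 35.9% of genes near ends lay below 0 against 51.1% of the others. Of 201 genes within 100 kb of an end, 18 rose and 0 fell, and the median of the 201 was 0.19. The 18 are 8.96%, close to the share of all genes, and 13.2%, 10.7% and 7.87% were called higher in the next bins up to 1000 kb. The other median values were 0.13 between 100 and 250 kb, 0.11 between 250 and 500 kb, 0.076 between 500 and 1000 kb, and -0.014 beyond 10000 kb. The median near ends was above that of the chromosome's other genes on 22 of 24 chromosomes, with 0.25 on chromosome 6 and 0.24 on chromosome 16 at the high side and -0.089 on chromosome 3 at the low side. Photoreceptor markers summed to 8340 to 9610 FPKM in PFNA-exposed DD eyes against 10800 to 12300 FPKM in DD control eyes. Of these markers, 9 of 16 fell with PFNA, and their part in this result was not tested. Mitochondrial genes took 5.07% to 6.17% of fragments in PFNA-exposed DD eyes against 6.09% to 8.03% in DD control eyes. The median log2 deviation of long minus short other genes was -0.094 to -0.043 against -0.20 to -0.011. The part of RNA quality in this result was not tested. The difference of medians between genes near ends and other genes rested on leaving out replicate 4 of the PFNA-exposed DD eyes. With all 16 libraries that difference was 0.004 in place of 0.12, with 80 genes called. A fit of the compared groups alone called 85.

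In LD eyes, 125 genes near ends rose and 57 fell of 1235, or 14.7% called where 17.5% of all genes were (10.9% higher and 6.6% lower), with a median log2 change of -0.019 near ends against 0.014 for other genes. That difference of -0.033 was -0.06 and -0.012 without replicates 1 and 2 of the LD control eyes and 0.002 without replicate 3 of the PFNA-exposed LD eyes, and 90 genes were called with all 16 libraries. Photoreceptor markers summed to 9830 to 12400 FPKM in PFNA-exposed LD eyes against 15200 to 19200 FPKM in LD control eyes. Of these markers, 2 of 16 rose and 8 fell with PFNA, and their part was not tested. Mitochondrial genes took 4.66% to 5.85% of fragments in PFNA-exposed LD eyes against 5.29% to 6.13% in LD control eyes. The median log2 deviation of long minus short other genes was 0.031 to 0.215 against -0.012 to 0.062. The part of RNA quality was not tested. In DD brains 49 rose and 14 fell of 1223, or 5.15% called where 6.57% of all genes were (4.77% higher and 1.8% lower), and the difference of medians was 0.018. In LD brains 57 rose and 15 fell, or 5.89% called where 7.8% of all genes were (5.55% higher and 2.25% lower), and the difference was -0.037. For PFNA, the share called in either direction near ends was thus below that of all genes in both tissues and both photoperiods.

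The brain counts with PFNA fell when any of several libraries was left out. The 63 of DD brains were 29, 26 and 35 without replicates 1, 2 and 4 of the PFNA-exposed DD brains, 32 with all 16 libraries and 16 in a fit of the compared groups alone. The difference of medians of 0.018 was 0.047 and -0.004 without replicates 2 and 4 of the PFNA-exposed DD brains and 0.051, 0.01 and -0.005 without replicates 2, 3 and 4 of the DD control brains. The 72 of LD brains were 33, 36, 35 and 32 without replicates 1 to 4 of the PFNA-exposed LD brains, 46 and 38 without replicates 2 and 4 of the LD control brains, and 19 with all 16 libraries. The difference of -0.037 was -0.019 without replicate 1 of the LD control brains.

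**Figure D5:**
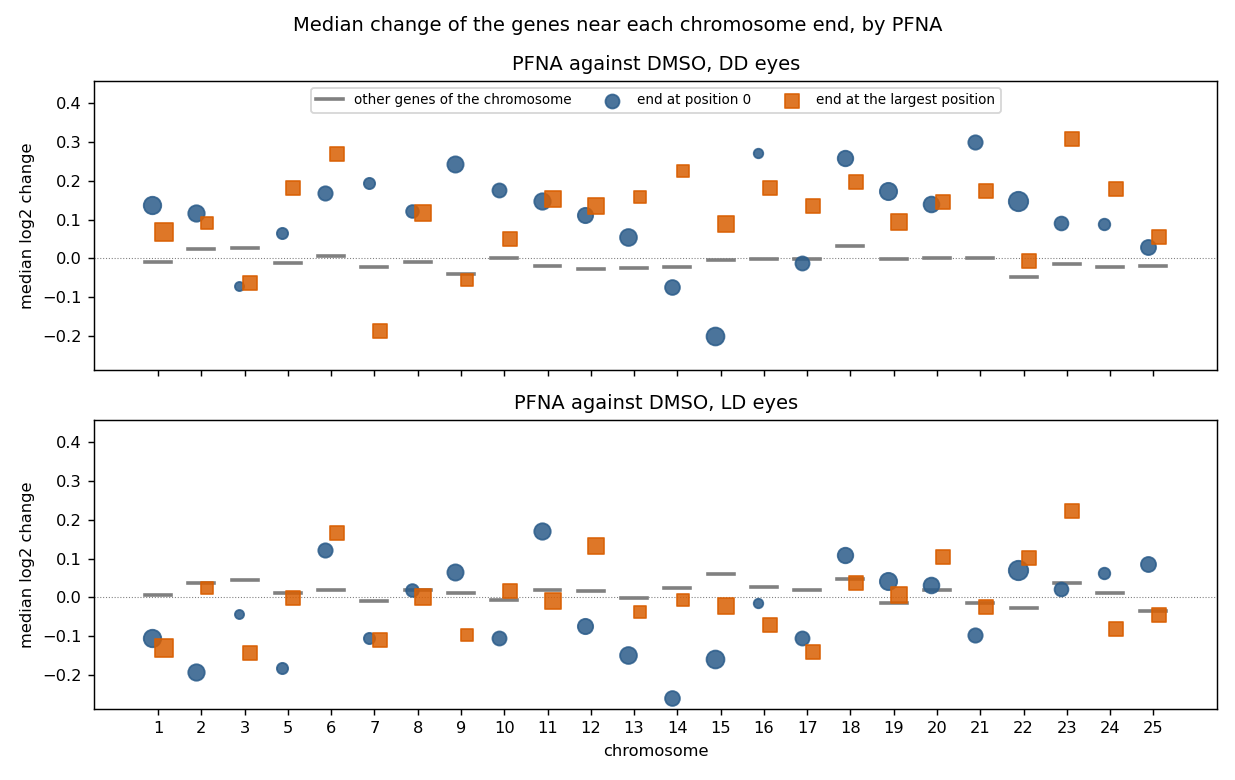
Median log2 change, PFNA against DMSO, of the genes near each chromosome end in DD eyes (top) and LD eyes (bottom); circles are ends at position 0, squares are ends at the largest position, symbol area follows the number of genes and grey bars are the other genes of the chromosome. In DD eyes 41 of 48 ends lie above the median of other genes, and the far end of chromosome 23 is highest in both panels, at 0.31 and 0.22.

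By end, the far end of chromosome 23 was highest with PFNA in eyes of both photoperiods, with a median log2 change of 0.31 in DD, where 4 of 27 genes rose, and 0.22 in LD, where 8 rose. It was highest in LD brains as well, at 0.17 with 5 of 24 genes higher. The start of chromosome 21 followed in DD eyes, at 0.3, with 2 higher and 1 lower of 25. The start of chromosome 15 was lowest in DD eyes, at -0.2, although 2 of its 41 genes rose, and the start of chromosome 14 was lowest in LD eyes, at -0.26 with 4 lower and 1 higher of 27. Eye and brain medians over the 48 ends had a Pearson's r of 0.57 for PFNA in LD and 0.22 for PFNA in DD.

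Single genes near ends rose strongly with PFNA. prelid3b (chromosome 6, 60112200 to 60122081, plus strand, 30.4 kb from the end), a homologue of the PRELI proteins that carry lipids between mitochondrial membranes, had 107, 119 and 109 FPKM in PFNA-exposed DD eyes, against 43.2, 46.6, 47.6 and 46.6 FPKM in DD control eyes. In LD it had 142, 174, 154 and 166 FPKM in PFNA-exposed eyes, against 69.4, 82.2, 82.3 and 81.4 FPKM in control eyes. The DD library left out had 116 FPKM. The exposed libraries lay above the controls in both photoperiods, and the log2 change of prelid3b was 1.26 ± 0.08 in DD and 1 ± 0.08 in LD (SE, limma, adjusted p = 3.05e-07 and 1.03e-06). In brains it was 0.88 ± 0.15 in DD and 0.64 ± 0.14 in LD (SE, limma, adjusted p = 0.003 and 0.0115), and the LD call was lost with all 16 libraries (adjusted p = 0.342). prelid3b was also called lower in DD than in LD in both treatments and both tissues. In PFNA-exposed brains that log2 change was -0.55, and it was -0.13 with all 16 libraries (limma, adjusted p = 0.817); the call was also lost in 6 of the fits that left out 1 library. In control brains it was lost with all 16 libraries (limma, adjusted p = 0.145).

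Lipid synthesis genes near ends rose with PFNA. Of the 4 near ends, srebf1, scd and cyp51 rose in eyes of both photoperiods and stard4 did not pass, and srebf1 and scd rose in brains of both. Of all cholesterol and fatty acid synthesis genes tested, 16 of 30 rose in DD eyes, 15 of 30 in LD eyes, 11 of 29 in DD brains and 12 of 29 in LD brains. srebf1, the transcription factor that drives fatty acid synthesis genes, lies 452 kb from the far end of chromosome 3. In DD it had 94.6, 96.5 and 77.1 FPKM in PFNA-exposed eyes, against 49.7, 54.1, 47.9 and 34 FPKM in control eyes. In LD it had 142, 142, 120 and 161 FPKM in PFNA-exposed eyes, against 56.8, 63.2, 66.7 and 63 FPKM in control eyes. The exposed libraries used lay above the controls in both. The DD library left out had 27.3 FPKM of srebf1, below all the controls. The log2 change was 0.94 ± 0.14 in DD eyes and 1.16 ± 0.13 in LD eyes (SE, limma, adjusted p = 0.000394 and 3.19e-05), and the DD call was lost with all 16 libraries (adjusted p = 0.284). In brains srebf1 changed by 1.26 ± 0.12 in DD and 1.39 ± 0.11 in LD (SE, limma, adjusted p = 3.75e-05 and 5.4e-06).

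scd, the desaturase that makes monounsaturated fatty acids, had 5.55, 6.08 and 4.62 FPKM in PFNA-exposed DD eyes, against 1.28, 1.44, 1.24 and 0.939 FPKM in DD control eyes. In brains it had 3.96, 4.67 and 5.57 FPKM in PFNA-exposed DD libraries, against 0.317, 0.211, 0.455 and 0.2 FPKM in DD controls. The groups were far apart in both tissues, and the log2 change of scd in DD was 1.53 ± 0.21 in eyes and 2.14 ± 0.15 in brains (SE, limma, adjusted p = 0.000205 and 3.09e-06). The pseudocount of 1 FPKM understates changes at such low levels. cyp51, a demethylase of sterol synthesis, changed by 1.09 ± 0.16 in DD eyes and 0.6 ± 0.15 in LD eyes (SE, limma, adjusted p = 0.000449 and 0.0137; LD 0.107 with all 16 libraries).

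At the start of chromosome 22 a run of 4 adjacent genes rose with PFNA in LD eyes between 786556 and 856886, with a median log2 change of 1.01: cry3b, zgc_153675, cry4 and dennd2db. cry3b (786556 to 809282, plus strand), which the table describes as cryptochrome circadian regulator 1bb, had 82.3, 90.4 and 90.5 FPKM in PFNA-exposed DD eyes, against 56, 55, 58.7 and 47.6 FPKM in DD control eyes. In LD it had 68, 79.9, 77.8 and 83.7 FPKM in PFNA-exposed eyes, against 24.2, 27.7, 27.2 and 27.3 FPKM in control eyes. The DD library left out had 36.7 FPKM, below the DD controls. The log2 change of cry3b was 0.69 ± 0.09 in DD and 1.5 ± 0.08 in LD (SE, limma, adjusted p = 0.000116 and 4.92e-08; DD 0.293 with all 16 libraries). Of all clock and light-induced genes tested, 29 of 45 rose in DD eyes and 34 of 45 in LD eyes.

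nedd4a, il1b and bzw1b near ends also rose with PFNA. nedd4a, a ubiquitin ligase, had 12.6, 12.8 and 14.1 FPKM in PFNA-exposed DD eyes, against 6.78, 7.93, 6.83 and 5.19 FPKM in DD control eyes. Its log2 change was 0.89 ± 0.13 in DD eyes and 1.13 ± 0.12 in LD eyes (SE, limma, adjusted p = 0.00026 and 1.51e-05), and it rose in brains of both photoperiods. il1b, the cytokine interleukin 1 beta, had 4.36, 2.95, 5.04 and 5.14 FPKM in PFNA-exposed LD eyes, against 0.596, 0.418, 0.594 and 0.658 FPKM in LD control eyes, a log2 change of 1.76 ± 0.18 (SE, limma, adjusted p = 1.63e-05). In DD eyes it changed by 0.68 ± 0.2 (SE, limma, adjusted p = 0.0323; 0.204 with all 16 libraries). bzw1b, a regulator of translation initiation, had 30.5, 31.9 and 40 FPKM in PFNA-exposed DD eyes, against 11.5, 9.51, 7.78 and 10.3 FPKM in DD control eyes, a log2 change of 1.71 ± 0.14 (SE, limma, adjusted p = 2.59e-06). Of 3 immediate early genes near ends, egr4 and btg2 rose in LD eyes, as did 22 of 32 tested in all; the call of egr4 was lost in 5 of the fits that left out 1 library. Neither was called in DD eyes, where 14 of the 32 rose. The PFNA effect in DD minus that in LD was not called for egr4 or btg2 in eyes.

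atad3, so low in DD controls, was higher with PFNA in DD. It had 9.78, 8.1 and 5.18 FPKM in PFNA-exposed DD eyes against 3.33, 4.83, 3.5 and 2.02 FPKM in DD control eyes, and 7.8, 9.81 and 9.01 FPKM in PFNA-exposed DD brains against 3.06, 4.88, 4.61 and 2.47 FPKM in DD control brains. Exposed and control libraries did not overlap. The libraries left out had 2.59 FPKM in eyes and 3.91 FPKM in brains, within the range of the controls. The log2 change of atad3 was 0.98 ± 0.28 in eyes and 1.08 ± 0.2 in brains (SE, limma, adjusted p = 0.0318 and 0.00511; 0.211 and 0.0736 with all 16 libraries). In LD it was 0.07 ± 0.26 in eyes and -0.24 ± 0.19 in brains and did not pass (limma, adjusted p = 0.892 and 0.479). The PFNA effect in DD minus that in LD was not called for atad3 in either tissue. These DD controls are the libraries that made atad3 low in the photoperiod comparison, so the 2 results share them.

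Falls with PFNA in LD were not more frequent close to an end than among all genes. Within 100 kb, 13 genes fell and 12 rose of 201 in LD eyes, or 6.47% lower where 6.6% of all genes were. In LD brains 3 fell and 5 rose of 208, or 1.44% lower where 2.25% of all genes were. Examples of genes that fell are iqgap3 and sox9b. iqgap3 had 2.51, 3.19, 2.57 and 3.42 FPKM in PFNA-exposed LD eyes, against 5.68, 5.32, 5.49 and 6.45 FPKM in LD control eyes. sox9b had 6.57, 7.06, 7.1 and 5.84 FPKM in PFNA-exposed LD brains, against 12.5, 11.7, 13.6 and 10.9 FPKM in LD control brains. The groups did not overlap for either gene. The log2 change was -0.78 ± 0.16 for iqgap3 in eyes and -0.79 ± 0.16 for sox9b in brains (SE, limma, adjusted p = 0.00398 and 0.00751). Of the 5 cell cycle genes near ends, 3 fell with PFNA in LD eyes, as did 24 of 45 in all.

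Whether PFNA acted differently in DD and LD was asked with the interaction, the PFNA effect in DD minus that in LD. Near ends 2 genes were higher and 1 lower in eyes, where 60 of 18204 genes, or 0.33%, were called (0.148% higher and 0.181% lower), and 1 was higher in brains, where it was the only one called, or 0.00573%. At an unadjusted p under 0.05 there were 169 of 1235 genes near ends in eyes, where 2247 of all 18204 were, and 67 of 1223 in brains, where 1220 of all 17437 were. The median near ends minus that of other genes was 0.13 in eyes and 0.05 in brains, and the near-end median was above that of the chromosome's other genes on 23 and 20 of 24 chromosomes. With all 16 libraries these differences were 0.024 and -0.004. The brain value was 0.032 without replicate 4 of the DD control brains and also without replicate 4 of the PFNA-exposed DD brains. In eyes the 3 calls were 1 without replicate 2 or 3 of the DD control eyes, replicate 3 of the PFNA-exposed DD eyes, replicate 2 of the LD control eyes or replicate 1 of the PFNA-exposed LD eyes, and they were 5 under limma-voom and 6 after quantile normalization. The brain call was absent without replicate 2 of the PFNA-exposed DD brains, replicate 4 of the LD control brains or replicate 4 of the PFNA-exposed LD brains, and under limma-voom and with all 16 libraries.

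The gene lower in this interaction was cry3b, with a log2 difference of -0.82 ± 0.12, a smaller PFNA effect in DD (SE, limma, adjusted p = 0.0106; 0.169 with all 16 libraries). The genes higher were june, an AP-1 transcription factor that overlaps HOOK3, with 0.97 ± 0.17, and drap1, a subunit of a repressor of transcription initiation, with 0.66 ± 0.11 (SE, limma, adjusted p = 0.0329 and 0.026). june had 6, 5.54, 5.47 and 5.46 FPKM in DD control eyes, against 10.5, 15.3, 12.4 and 12.8 FPKM in LD control eyes. The calls of june and drap1 were lost in 9 and 7 of the fits that left out 1 library. That of june was also lost with all 16 libraries (limma, adjusted p = 0.332) and with a replicate term in the fit (0.058). In brains the gene was an RF00001 copy within nrxn2b on chromosome 7, a 5S ribosomal RNA gene with many near-identical copies, whose value of 2.82 ± 0.34 is uncertain for that reason (SE, limma, adjusted p = 0.0139).

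Eyes were also compared with brains in LD controls. There 258 members were higher and 412 lower in eyes than in brains of 1318, or 50.8% called where 51.4% of all 19200 genes were, with 19.6% called higher where 26% of all genes were and 31.3% called lower where 25.5% of all genes were. The median log2 difference, eye minus brain, was -0.11 near ends against 0.031 for other genes, and 37 of 48 ends lay below that of other genes. The lowest end was the start of chromosome 16, with -1.01 over 9 genes, and the highest was the far end of chromosome 12, with 0.4 over 31 genes. The fit took eye and brain libraries as independent, and whether those of 1 number came from the same embryos is not stated in the labels.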

How the data were processed

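FPKM values, computed and deposited by the authors as a table with a position, length and type per gene, were used for 32 libraries of total RNA (random-hexamer cDNA, paired-end sequencing). Tools listed in the submitters' processing notes are HISAT2 2.0.5 and featureCounts 1.5.0-p3; no genome build or annotation is given in the sources used here. Per the labels' protocols, libraries could be directional or non-directional, and the kit used is not stated, so overlapping and antisense genes, and repeated gene copies, are uncertain.

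Per tissue, genes with at least 1 FPKM in 4 or more of 16 libraries were fitted on log2(FPKM + 1), which understates changes of low genes, with limma 3.58.1 (trend; R 4.3.3 and the data.table package, version 1.17.8) over 15 libraries and 4 groups, without a replicate term. Replicate 4 of the PFNA-exposed DD eyes and replicate 3 of the PFNA-exposed DD brains were left out. P-values are two-sided, adjusted by Benjamini-Hochberg over all genes tested in the tissue, and called under 0.05. Genes near ends were then counted beside all genes, per chromosome, per end and by distance. The scripts were checked on simulated data. The members, windows, gene lists (680 of 697 entries matched) and alternatives were chosen with earlier results of these data known. Genes were named by rule: the largest called changes per comparison, called genes of the highest and lowest ends, called list members, the genes nearest an end, those at the window's edge, and runs of adjacent called genes; the text names a part of these, chosen after their values were seen.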

Additional observations from a re-analysis of the deposited data

Results flagged for a closer look

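The genes named with values and the library value near ends gave 312 groups of 4 libraries. Of these, 16 held a library far from the other 3. That is about the 1 in 20 that chance gives for independent groups, but these groups share libraries. In DD control eyes, replicate 4 had 12.4 FPKM of kpnb1, where the others had 19.1 to 19.7, and 6.42 FPKM of shank2a, where the others had 10.8 to 11; both are genes called lower in DD, and the same library had the lowest library value near ends among those used. It had 4.95 FPKM of eed, above 2.95 to 3.09 in the others. Replicate 1 of that group had 31.6 FPKM of ttc39b, where the others had 25.7 to 26.7, and 6 FPKM of june, where the others had 5.46 to 5.54.

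In DD control brains, replicate 2 had 11.3 FPKM of pde6ha (3.53 to 4.22 in the others), 10.3 FPKM of zgc_194659 (24.1 to 26.2) and 3.76 FPKM of aurka (1.34 to 1.57), and replicate 4 had 19.5 FPKM of btg2 (11.2 to 11.6). In PFNA-exposed LD libraries, eye replicate 4 had 102 FPKM of ddx3xb (84.4 to 84.7), brain replicate 4 had 21.9 FPKM of parn (19.6 to 20) and 9.84 FPKM of bzw1b (13.4 to 14.1), and brain replicate 2 had 33.7 FPKM of psmd3 (28.3 to 28.7). In LD controls, eye replicate 1 had 24.2 FPKM of cry3b (27.2 to 27.7) and 69.4 FPKM of prelid3b (81.4 to 82.3), and brain replicate 3 had 2.46 FPKM of ccn1 (1.15 to 1.29).

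For 4 genes near ends the PFNA effect differed between DD and LD by the interaction of the limma fit: cry3b by -0.82 (adjusted p = 0.0106), drap1 by 0.66 (0.026) and june by 0.97 (0.0329) in eyes, and RF00001 by 2.82 (0.0139) in brains, on the log2 scale, DD minus LD.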

How the results depend on the processing

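The FPKM scaling is the authors', genes share fragments where they overlap, and with 3 or 4 libraries a group the calls near ends depend on single libraries. The direction of each difference of medians in the photoperiod comparisons held under every alternative run, while those of PFNA in LD eyes and DD brains and of the brain interaction crossed 0 under some, as listed here. Counts moved by less than 1.5 times under median-ratio scaling. Medians moved by less than the SD between replicates under median-ratio scaling, with chromosome 4 included, with protein-coding genes only and with genes of 1 to 100 FPKM only; counts were not made for these last 3.

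With all 16 libraries, called genes near ends were 199 for DD against LD in DMSO eyes, 137 in DMSO brains and 236 in PFNA eyes, and for PFNA against DMSO 90 in LD eyes, 80 in DD eyes, 19 in LD brains and 32 in DD brains; the interaction gave 1 in eyes and 0 in brains. A fit of the compared groups alone gave 164 in DMSO brains, 97 in PFNA eyes and 316 in PFNA brains for DD against LD, and 85 in DD eyes and 16 in DD brains for PFNA; it cannot give the interaction. The eye interaction was 5 under limma-voom on recovered fragments and 6 after quantile normalization; the brain one was 0 under limma-voom and with the replicate block, and at an unadjusted p under 0.05 the limma fit gave 67.

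The median near ends minus that of other genes, for DD against LD in DMSO eyes, was -0.33 under limma-voom and -0.33 with a pseudocount of 0.1, -0.14 with no filter, and -0.19 and -0.31 with windows of 2000 and 500 kb. In DMSO brains it was -0.30, -0.28, -0.11, -0.18 and -0.28 in that order. In PFNA brains it was -0.23 with all 16 libraries, -0.24 under limma-voom, -0.082 with no filter, -0.23 with a pseudocount of 0.1 and -0.23 with a window of 500 kb, and in PFNA eyes -0.24 with all 16 libraries and -0.058 with no filter. With all 16 libraries it was 0.004 for PFNA in DD eyes, and 0.024 in eyes and -0.004 in brains for the interaction.

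Leaving out each library in turn, counts for DD against LD ranged over 299 to 392 in DMSO eyes, 254 to 347 in DMSO brains, 58 to 194 in PFNA eyes and 82 to 221 in PFNA brains. For PFNA they ranged over 132 to 191 in LD eyes, 101 to 148 in DD eyes, 32 to 82 in LD brains and 26 to 78 in DD brains, and for the interaction over 1 to 3 in eyes and 0 to 1 in brains. Differences of medians for DD against LD ranged over -0.29 to -0.24 in DMSO eyes, -0.25 to -0.21 in DMSO brains, -0.16 to -0.11 in PFNA eyes and -0.20 to -0.17 in PFNA brains. For PFNA they ranged over -0.06 to 0.002 in LD eyes, 0.085 to 0.16 in DD eyes, -0.048 to -0.019 in LD brains and -0.005 to 0.051 in DD brains, and for the interaction over 0.093 to 0.17 in eyes and 0.032 to 0.072 in brains.

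Of 177 called results of the genes named with values, none reversed; the call was lost in 7 with a pseudocount of 0.1, 24 with no filter, 5 under median-ratio scaling, 16 after quantile normalization, 16 under limma-voom, 56 with all 16 libraries and 13 with the replicate block. It was lost in 35 of 174 in a fit of the compared groups alone and in 296 of 2655 fits that left out 1 library. The cause was not tested.

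Same-numbered libraries of different groups were not treated as paired, as no label says that the number pairs them. Over 42 pairs r ran from -0.30 to 0.27 and was over 0.1 in 7, all of them in brains. The main fit has no replicate term, so a link by number is not taken up in it. By sign and by best match such a link was seen more in eyes, though no r in eyes was over 0.1. r was above 0 in 17 of 21 pairs in eyes and in 11 of 21 in brains, and 22 of 42 matches in eyes and 14 of 42 in brains were best with the own number. The replicate block changed the count of called genes by over 1.5 times only for the brain interaction.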

Other observations

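nub1, a regulator of the ubiquitin-like protein NEDD8 at 870 kb from the far end of chromosome 24, was near 0 in some LD libraries and not in others. In eyes it had 8.25, 5.56 and 3.37 FPKM in PFNA-exposed DD libraries, 2.24, 2.29, 3.81 and 5.71 FPKM in DD controls, 1.02, 0.0432, 0 and 1.97 FPKM in PFNA-exposed LD libraries and 1.08, 0, 0.994 and 0.0459 FPKM in LD controls. In brains it had 6.89, 4.07 and 7.91 FPKM in PFNA-exposed DD libraries, 4.25, 1.52, 4.93 and 4.19 FPKM in DD controls, 2.48, 0, 0 and 2.93 FPKM in PFNA-exposed LD libraries and 1.88, 0, 0.891 and 0 FPKM in LD controls. The LD libraries at or under 0.0459 FPKM carried the same replicate numbers in eyes and brains, 2 and 3 with PFNA and 2 and 4 in controls. DD and LD did not overlap in control eyes, and the call for nub1 in control brains was lost in 9 of the fits that left out 1 library.

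The libraries of eyes and brains with the same group and number deviated together across genes: over 14 pairs r ran from -0.002 to 0.20, and in 12 of 14 an eye library was closest to the brain library of its own number.

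The ends of chromosome 4, which were not members, were also lower in DD control eyes. The start had a median log2 change of -0.29, with 13 lower and 2 higher of 43 genes, and the far end had -0.12, with 4 lower and 1 higher of 23. In brains the medians were -0.26 and 0.005.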
